A study of Mus musculus with 19 samples.

Results

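The genes described here encode the antiviral and regulatory proteins that cells make in response to type I interferon. The set holds 44 genes chosen by name, as members of the interferon-stimulated families of IFIT, OAS, ISG15, Mx, Schlafen, PARP, TRIM and related proteins, and all 44 were found among the 23951 genes of both expression tables. No measured value entered that choice, although earlier results of these data were known when the names were listed.

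Type I interferons are secreted proteins that bind a receptor made of Ifnar1 and Ifnar2. The kinases Jak1 and Tyk2 then activate transcription factors, Stat2 and Irf9 among them, that bind interferon-stimulated response elements (ISREs) near the genes they switch on. The products of these genes bind foreign RNA, block viral entry or release, or modify other proteins, and microglia, the resident macrophages of the brain, carry a low basal level of them.

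The values come from hippocampal microglia sorted by flow cytometry on CD11b and CD45, sequenced as bulk RNA in 15 libraries, 5 groups of 3. At 4.5 months the groups were CK-p25 PU.1 cKO (Cx3cr1CreER+/-; CK-p25 with PU.1 fl/fl), CK-p25 (Cx3cr1CreER+/-; CK-p25 without the floxed alleles) and CK (Cx3cr1CreER+/-; CK littermates). In CK-p25 mice the forebrain excitatory neurons, through a tetracycline-controlled transgene under the Camk2a promoter, can be induced to make p25, an activator of the kinase Cdk5, and then degenerate. Each of these mice received tamoxifen at 50 mg/kg on 5 days when p25 was induced, and tissue was taken 6 weeks later. At 3 months the groups were Cx3cr1CreER+/- mice titled PU.1 cKO (with PU.1 fl/fl) and Cx3cr1CreER+/- mice titled control (without), given the same tamoxifen course and collected 1 week later. Cx3cr1 drives the Cre in microglia but also in border macrophages and some blood monocytes, and every group carried it, so none was free of Cre or tamoxifen. Values are FPKM (fragments scaled to transcript length and to the mapped fragments of the library), whose read depth is unknown.

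Spi1, the gene of the deleted factor PU.1, was checked first. It had FPKM values of 165, 152 and 224 in CK-p25 PU.1 cKO, 251, 208 and 298 in CK-p25, against 256, 229.7 and 251 in CK. The log2 difference of CK-p25 PU.1 cKO against CK-p25 was -0.49 ± 0.17 (standard error, SE) and did not pass the threshold (limma, adjusted p = 0.745). Against CK it was -0.46 ± 0.17 (adjusted p = 0.0751), and after quantile normalization -0.85 (0.00495). At 3 months Spi1 went against the titles: it measured 409, 338 and 337 FPKM in libraries titled PU.1 cKO and 261, 105 and 248 FPKM in those titled control (0.92 ± 0.35, adjusted p = 0.0853). The descriptions also tie each 3-month sample to a table column named for the other group, while source names and genotypes follow the titles, so the 3-month groups are called by title throughout, and the other reading would turn every 3-month sign round. All 12 microglial markers checked reached 1 FPKM in each of the 15 libraries. Their summed level was 17612 to 19767 FPKM in CK-p25 PU.1 cKO, 19385 to 21943 FPKM in CK-p25 and 30323 to 33137 FPKM in CK. In bulk samples fewer cells of a type and less RNA per cell cannot be told apart.

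The letters of the ISRE appear in many of these genes near the start of transcription, and the windows below show matches that lie before it. They were read from the RefSeq promoter table of build GRCm38.p6, which holds 250 bases before to 50 after each start and gave promoters for 36 of the 44 genes. Each line runs 5′ to 3′ along the gene's own strand, capitals mark the ISRE-like letters GAAANNGAAA or, where the match lies on the other strand, their reverse complement, and positions count back from the start.
Ifit1 (chr19:34640773-34640825, plus strand, capitals within -104 to -76): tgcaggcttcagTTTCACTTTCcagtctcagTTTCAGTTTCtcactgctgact
Ifit3 (chr19:34583395-34583428, plus strand, capitals from -122 to -113): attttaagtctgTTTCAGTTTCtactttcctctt
Oas1a (chr5:120907526-120907557, minus strand, capitals from -20 to -5): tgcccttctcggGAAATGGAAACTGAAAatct
Oas1g (chr5:120887614-120887643, minus strand, capitals from -18 to -3): tgcccttctcggGAAATGGAAACTGAAAat
Oas3 (chr5:120777713-120777746, minus strand, capitals from -75 to -66): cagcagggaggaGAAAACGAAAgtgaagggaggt
Isg15 (chr4:156200863-156200908, minus strand, capitals from -78 to -57): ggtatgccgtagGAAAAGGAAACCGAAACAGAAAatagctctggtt
Bst2 (chr8:71537575-71537614, minus strand, capitals from -130 to -115): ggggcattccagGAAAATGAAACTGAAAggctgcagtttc
Rsad2 (chr12:26456551-26456584, minus strand, capitals from -120 to -111): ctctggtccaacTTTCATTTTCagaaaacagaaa
Ddx60 (chr8:61928056-61928086, plus strand, capitals from -19 to -10): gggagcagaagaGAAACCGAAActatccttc
Trim30a (chr7:104465208-104465241, minus strand, capitals from -36 to -27): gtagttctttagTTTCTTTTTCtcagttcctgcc

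Isg15 held 3 overlapping copies of the letters, and Oas1a, Oas1g and Bst2 held 2 overlapping copies each. The windows of Oas1a and Oas1g were the same letter for letter over the 30 bases of the shorter window. In all, 14 of the 36 genes with a promoter (38.9%) held GAAANNGAAA on either strand, against 3.99% of the 27025 genes in the table. The other genes with a match were Eif2ak2, Ifitm3, Slfn5 and Slfn8, and the matches of Eif2ak2 and Ifitm3 lay after the start. A composite of PU.1 and interferon regulatory factor letters, GGAANNGAAA, differs from the ISRE-like letters at 1 base and can overlap them. It stood in 17.8% of the 45 promoters of these genes and in 2.72% of the 32851 promoters of the table. The 7 genes that held it were Dtx3l, Epsti1, Ifi44, Phf11d, Slfn2, Sp100 and Trim25, and none of them held the ISRE-like letters. The PU.1-like letters GAGGAAG stood in 11.1% and 13.6% of those promoters, and the GAS-like letters TTCNNNGAA in 17.8% and 8.30%. A match is a description of the letters and not a bound site.

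In CK-p25 against CK, 38 of the 44 interferon effector genes rose, none fell and 6 did not pass the threshold of an adjusted p of 0.05 (limma on log2(FPKM + 1), two-sided, Benjamini-Hochberg over 10894 genes). Over all genes tested 17.6% were called higher and 13.7% lower. The median log2 difference of the 44 was 2.16, against a median of -0.0003 over all genes. It exceeded 1 in 34 genes, 2 in 24 and 3 in 10. The 3 CK-p25 libraries lay above the 3 CK libraries without overlap in 39 of the 44, a pattern seen in 24% of all genes. Summed over the 44 genes, the level was 2864 to 3539 FPKM in CK-p25 PU.1 cKO, 2815 to 3631 FPKM in CK-p25 and 464 to 610 FPKM in CK. After quantile normalization the higher share of all calls moved to 45.6%, against 56.3% as deposited, and 38 of the 44 were again called higher.

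**Figure D1:**
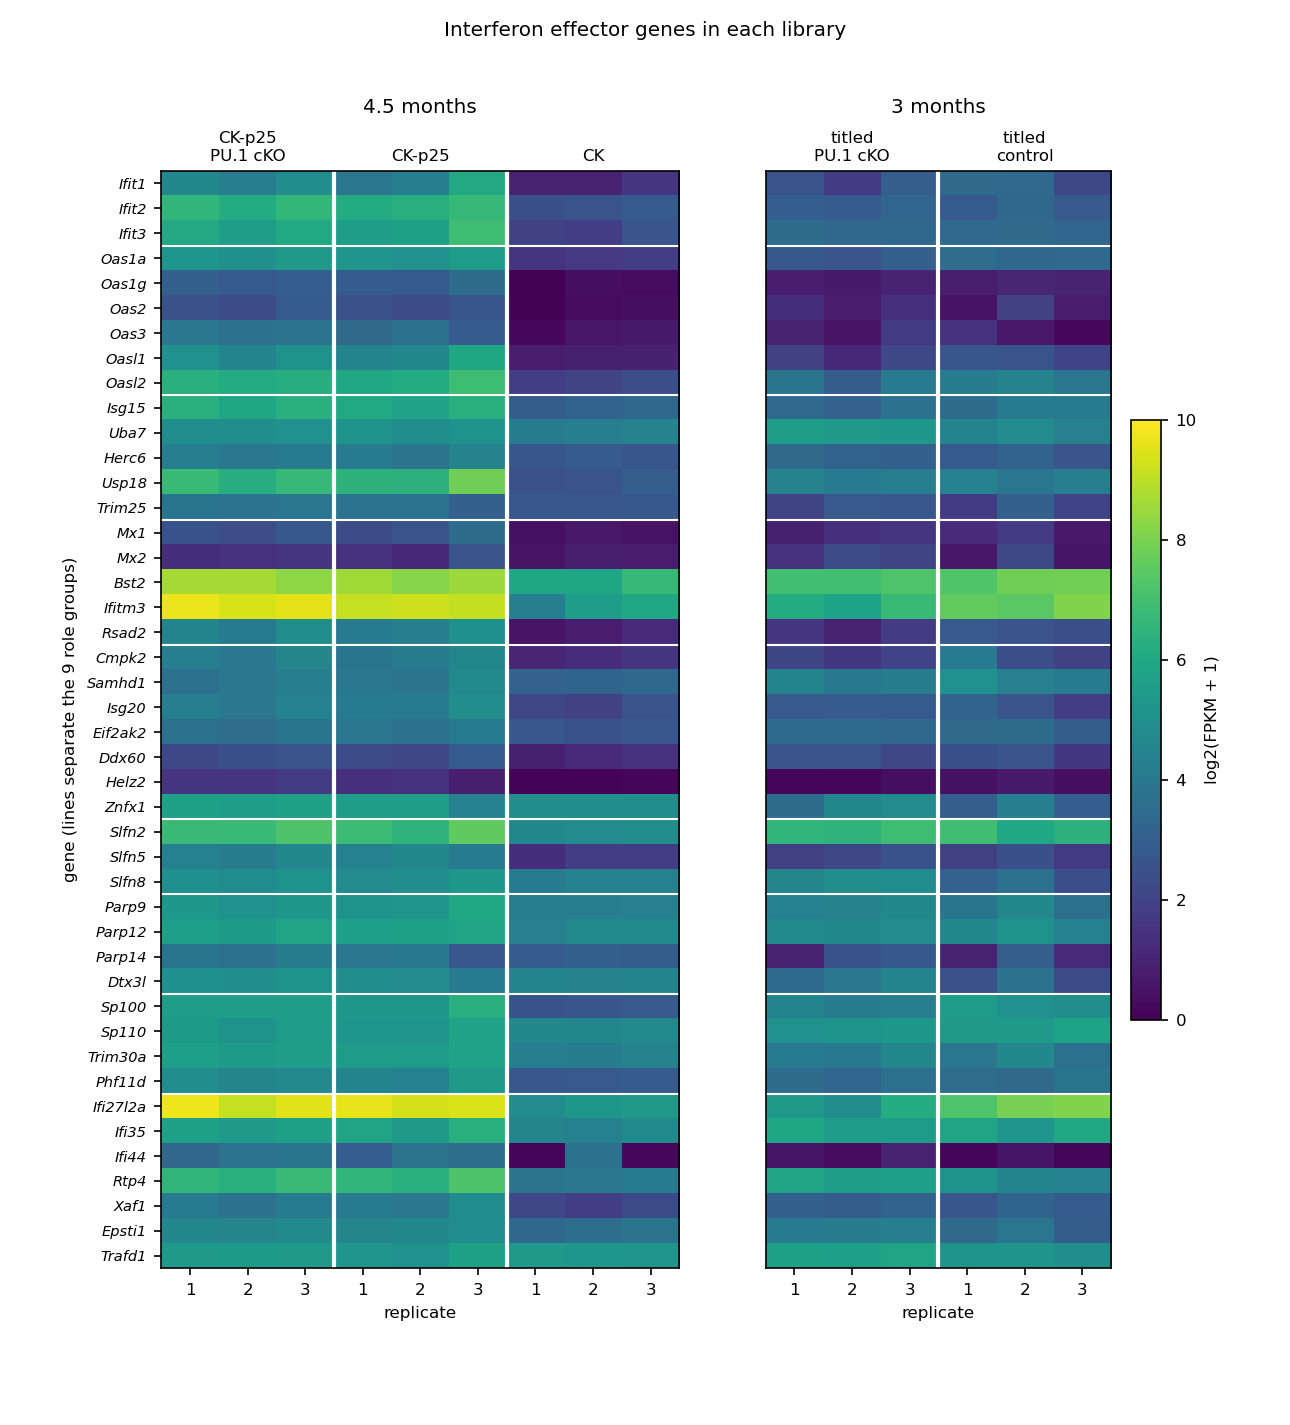
Level of each of the 44 interferon effector genes as log2(FPKM + 1) by colour in the 9 libraries at 4.5 months and the 6 libraries at 3 months, which were normalised apart. Rows are grouped into the 9 roles used in the text, and the brightest rows, Ifitm3 and Ifi27l2a, lie between 546 and 850.3 FPKM in the CK-p25 PU.1 cKO and CK-p25 libraries.

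The IFIT proteins bind RNA that lacks the cap marks of the host. All 3 rose in CK-p25, with a median log2 difference of 3.77. Ifit2, the most abundant of them, had FPKM values of 95.3, 69.8 and 98.1 in CK-p25 PU.1 cKO, 69.6, 78.9 and 104 in CK-p25, compared with 4.48, 5.00 and 6.14 in CK. Every CK-p25 library thus lay far above every CK library, and the log2 difference was 3.77 ± 0.19 (adjusted p = 1.06e-05). Ifit3 had FPKM values of 63.9, 47.1 and 66.6 in CK-p25 PU.1 cKO, 45.8, 50.7 and 118 in CK-p25, against 2.80, 2.66 and 5.21 in CK (3.90 ± 0.37). Ifit1 rose by 3.58 ± 0.49 and was the least even: CK-p25 replicate 3 held 64.1 FPKM, against 14.3 and 19.1 FPKM in the other CK-p25 libraries. The Ifit genes lie together on chromosome 19.

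The OAS enzymes make short oligoadenylates that switch on RNase L, which cuts RNA. All 6 rose, with a median of 3.22. Oasl2, an OAS-like protein and the most abundant of the family, had FPKM values of 79.9, 70.3 and 74.6 in CK-p25 PU.1 cKO, 61.3, 72.6 and 118 in CK-p25, compared with 2.52, 3.14 and 4.24 in CK (4.27 ± 0.24, adjusted p = 1.77e-05). Its relative Oasl1, known in mouse to restrain the translation of Irf7, rose by 4.16 ± 0.33. Oas1a had FPKM values of 37.6, 31.5 and 41.0 in CK-p25 PU.1 cKO, 36.4, 32.3 and 45.7 in CK-p25, against 1.89, 2.18 and 2.56 in CK, with a small spread in each group (3.60 ± 0.15). Oas3 had FPKM values of 14.6, 12.2 and 13.2 in CK-p25 PU.1 cKO, 9.89, 12.1 and 6.57 in CK-p25, compared with 0.174, 0.584 and 0.649 in CK (2.82 ± 0.21). Oas1g was the only 1 of the 44 listed at 0 in a library, CK replicate 1. Its FPKM values were 7.39, 6.08 and 6.91 in CK-p25 PU.1 cKO, 6.42, 6.22 and 10.5 in CK-p25, against 0, 0.333 and 0.230 in CK (2.85 ± 0.20), and since Oas1a and Oas1g are close copies their separate levels are uncertain. Oas2 was low throughout, at 3.85 to 5.44 FPKM in CK-p25 and 0.0504 to 0.337 FPKM in CK, and rose by 2.21 ± 0.19.

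ISG15 is a ubiquitin-like protein that is joined to other proteins by the activating enzyme Uba7 and ligases such as Herc6 and removed by Usp18. All 5 genes of this group rose, by amounts that differed widely. Usp18, which also dampens signalling at Ifnar2, had FPKM values of 107, 73.8 and 103 in CK-p25 PU.1 cKO, 88.5, 85.6 and 225 in CK-p25, compared with 4.59, 4.88 and 7.09 in CK. The log2 difference in CK-p25 was 4.23 ± 0.36 (adjusted p = 0.000111). Isg15 itself rose by 2.88 ± 0.19, at 66.1 ± 12.7 FPKM in CK-p25 and 8.06 ± 1.32 FPKM in CK (mean ± SD, n = 3 each). Herc6 rose by 1.40 ± 0.16, and Trim25, a ubiquitin ligase of the RNA sensor pathway, by 0.84 ± 0.19. Uba7 had the smallest rise of the group, 0.74 ± 0.09, at 35.3, 29.5 and 33.6 FPKM in CK-p25 against 18.1, 18.4 and 21.0 FPKM in CK. On the log2 scale the differences thus ran in the order Usp18, Isg15, Herc6, Trim25 and Uba7, though no test was run between genes.

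Of the 5 genes grouped as restriction factors, 4 rose and Mx2 did not pass. Ifitm3, which hinders the fusion of viruses with endosomes, had FPKM values of 827, 675 and 778 in CK-p25 PU.1 cKO, 557, 623 and 546 in CK-p25, against 18.9, 48.1 and 60.8 in CK (3.87 ± 0.36, adjusted p = 0.000167). Bst2 (tetherin), which holds budding virus at the cell surface, averaged 344 ± 47.9 FPKM in CK-p25 and 73.1 ± 24.8 FPKM in CK and rose by 2.26 ± 0.22. Rsad2 (viperin), an enzyme that makes a chain-terminating nucleotide, had FPKM values of 21.6, 15.8 and 30.0 in CK-p25 PU.1 cKO, 16.3, 18.2 and 31.4 in CK-p25, compared with 0.451, 0.763 and 1.35 in CK (3.60 ± 0.31). These 3 had no overlap between CK-p25 and CK. The dynamin-like GTPase Mx1 had FPKM values of 4.76, 4.20 and 5.67 in CK-p25 PU.1 cKO, 4.07, 5.13 and 10.7 in CK-p25, against 0.383, 0.585 and 0.422 in CK (2.29 ± 0.28, adjusted p = 0.000678). Its relative Mx2 had FPKM values of 1.44, 1.70 and 1.91 in CK-p25 PU.1 cKO, 1.69, 1.15 and 5.20 in CK-p25, compared with 0.437, 0.786 and 0.743 in CK. All 3 CK-p25 values of Mx2 were above all CK values, but the difference of 1.00 ± 0.36 missed the threshold (adjusted p = 0.0662).

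Among the 7 genes of nucleotide and RNA metabolism, 6 rose. Cmpk2, a mitochondrial nucleotide kinase and the neighbour of Rsad2 on chromosome 12, rose by 2.93 ± 0.21, and the exonuclease gene Isg20 by 2.16 ± 0.27. Smaller rises were those of Eif2ak2, which encodes the RNA-activated kinase PKR (1.29 ± 0.12), the helicase genes Ddx60 (1.28 ± 0.24) and Helz2 (1.09 ± 0.21), and Samhd1, which degrades deoxynucleotides (0.96 ± 0.24). The Samhd1 call was lost without CK replicate 1 (adjusted p = 0.0583) and without CK replicate 2 (0.0554). Znfx1, an RNA-binding sensor, was the most abundant of the group and did not pass. It had FPKM values of 51.7, 46.8 and 52.2 in CK-p25 PU.1 cKO, 45.9, 47.8 and 20.7 in CK-p25, against 29.4, 30.6 and 28.8 in CK (0.26 ± 0.28, adjusted p = 0.501). CK-p25 replicates 1 and 2 lay above every CK library and replicate 3 below every CK library.

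The 3 Schlafen genes, which act on transfer RNA and on cell growth, all rose. Slfn2 had FPKM values of 111, 107 and 146 in CK-p25 PU.1 cKO, 115, 89.5 and 188 in CK-p25, compared with 24.8, 27.0 and 29.7 in CK (2.16 ± 0.25). Slfn5 rose by 2.74 ± 0.18. Slfn8 had FPKM values of 31.7, 27.9 and 34.4 in CK-p25 PU.1 cKO, 27.1, 28.6 and 39.8 in CK-p25, against 16.8, 19.8 and 20.1 in CK, and its rise of 0.71 ± 0.15 was the smallest among the 38. They lie in a cluster on chromosome 11 with close copies, which leaves the share of reads of each uncertain.

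Of the PARP family and Dtx3l, 2 rose and 2 did not pass. Parp12, which adds ADP-ribose to proteins, had FPKM values of 49.0, 42.9 and 56.3 in CK-p25 PU.1 cKO, 49.5, 51.0 and 56.1 in CK-p25, compared with 19.7, 25.8 and 25.8 in CK (1.11 ± 0.14, adjusted p = 0.000638). Parp9 rose by 1.13 ± 0.20, while Dtx3l, the ubiquitin ligase it partners, had FPKM values of 31.6, 30.5 and 34.3 in CK-p25 PU.1 cKO, 29.2, 27.7 and 16.4 in CK-p25, against 21.9, 21.3 and 21.6 in CK (0.13 ± 0.19, adjusted p = 0.642). The gene models of Parp9 and Dtx3l overlap on chromosome 16, and the library kits do not mark strand, so reads of the overlap cannot be told apart. Parp14 had FPKM values of 13.8, 12.5 and 17.8 in CK-p25 PU.1 cKO, 14.8, 15.4 and 5.55 in CK-p25, compared with 6.61, 7.60 and 6.63 in CK (0.59 ± 0.33, adjusted p = 0.209). As with Znfx1, replicate 3 was the CK-p25 library below all CK values for both Dtx3l and Parp14.

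All 4 genes of nuclear bodies and the TRIM30 group rose. Sp100, a core protein of PML nuclear bodies, had FPKM values of 46.9, 47.6 and 47.1 in CK-p25 PU.1 cKO, 38.9, 39.5 and 76.1 in CK-p25, against 4.77, 5.34 and 6.02 in CK (2.97 ± 0.23, adjusted p = 7.49e-05). Phf11d rose by 1.95 ± 0.23. Trim30a, known in mouse to restrain NF-kB signalling, had FPKM values of 49.2, 42.7 and 48.2 in CK-p25 PU.1 cKO, 44.2, 45.2 and 52.8 in CK-p25, compared with 19.1, 18.0 and 21.5 in CK (1.24 ± 0.10). Sp110 had FPKM values of 42.3, 34.4 and 43.5 in CK-p25 PU.1 cKO, 37.2, 36.5 and 53.0 in CK-p25, against 24.6, 23.1 and 25.9 in CK (0.74 ± 0.16). Sp100 had the largest log2 difference of the group and Sp110, whose gene model overlaps that of Sp140, the smallest.

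Of the other 7 interferon-induced genes, 5 rose. Ifi27l2a, a small membrane protein gene, had the largest log2 difference of all 44, 4.33 ± 0.19 (adjusted p = 5.27e-06). It had FPKM values of 850.3, 563 and 744 in CK-p25 PU.1 cKO, 822, 654 and 706 in CK-p25, compared with 27.6, 38.7 and 40.5 in CK, and its gene model overlaps that of Ifi27. Rtp4, a chaperone of membrane receptors, had FPKM values of 91.8, 76.5 and 111 in CK-p25 PU.1 cKO, 94.7, 79.4 and 147 in CK-p25, against 13.5, 14.4 and 16.0 in CK (2.74 ± 0.22). Xaf1, linked to cell death, rose by 2.22 ± 0.23, Ifi35 by 1.26 ± 0.22 and Epsti1 by 1.09 ± 0.14. Ifi44 and Trafd1 did not pass. Ifi44 had FPKM values of 8.84, 13.02 and 13.9 in CK-p25 PU.1 cKO, 6.83, 13.2 and 11.3 in CK-p25, compared with 0.0853, 11.5 and 0.152 in CK (2.15 ± 0.84, adjusted p = 0.0874). CK replicate 2 alone was within the range of CK-p25, and without it the difference was 3.31 (adjusted p = 0.000488). Trafd1, a feedback inhibitor of innate signalling, had FPKM values of 41.2, 42.1 and 41.9 in CK-p25 PU.1 cKO, 36.0, 32.4 and 50.4 in CK-p25, against 41.5, 37.4 and 36.1 in CK, with a difference of 0.02 ± 0.15 and overlapping groups.

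**Figure D2:**
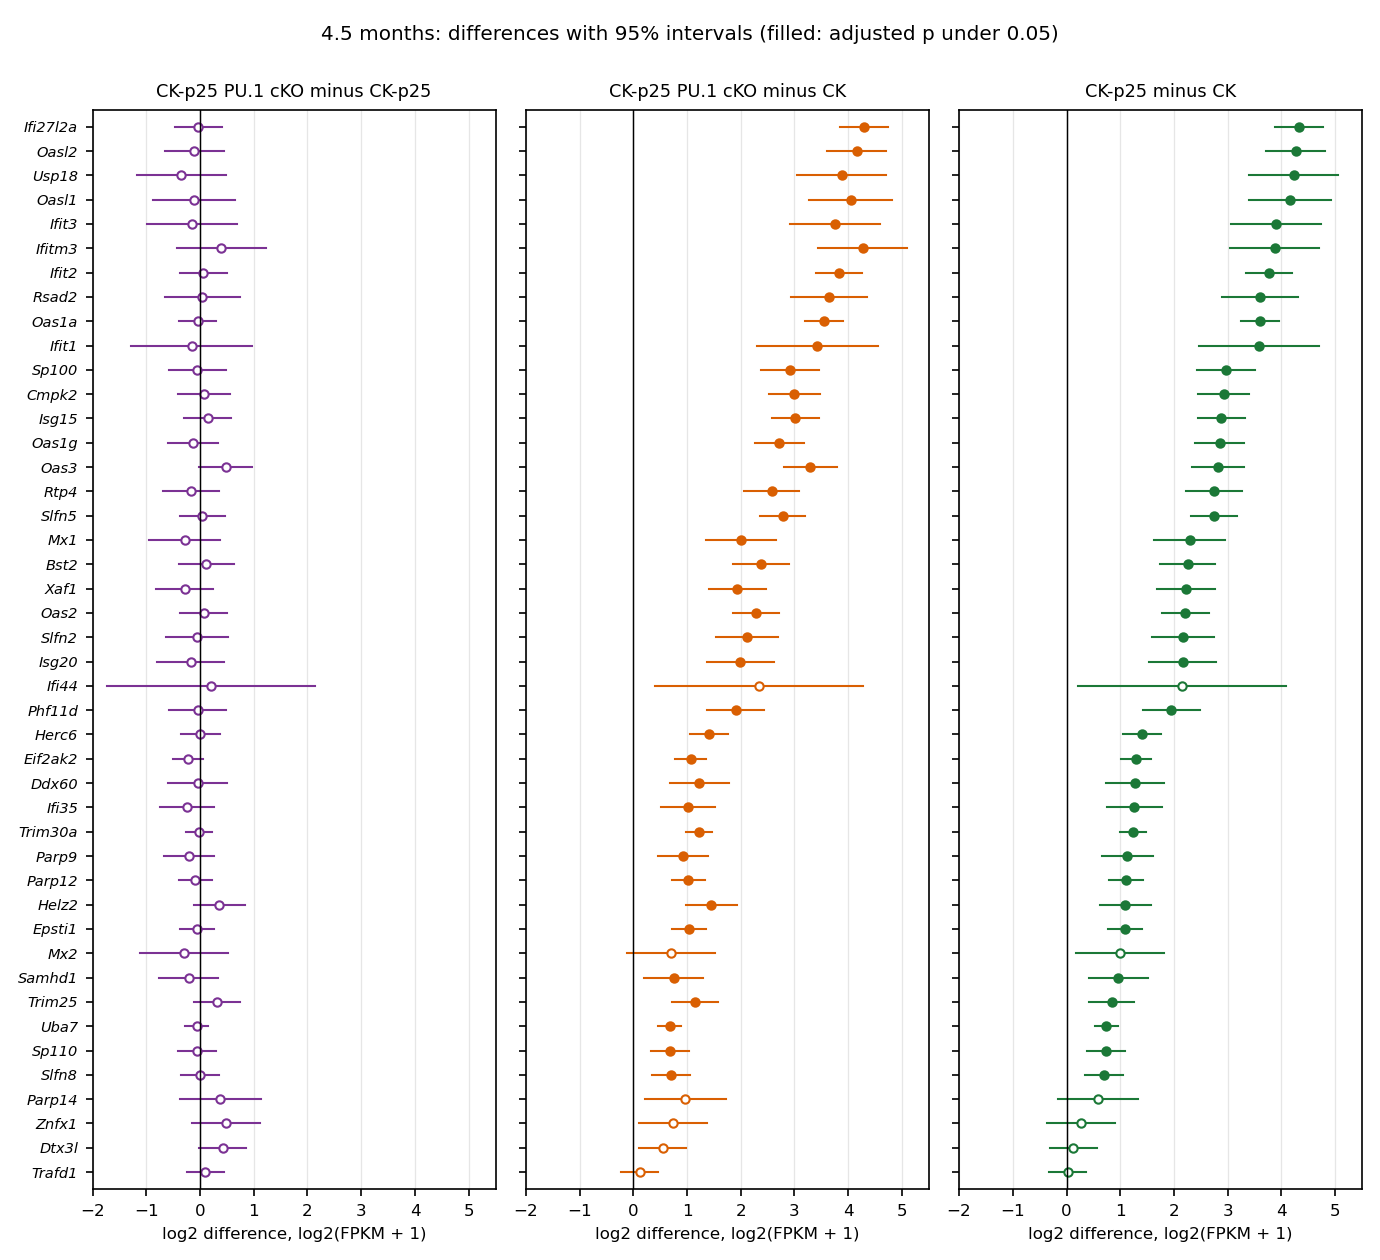
Log2 difference of each of the 44 genes at 4.5 months (points) with its 95% interval (lines), in 3 panels by comparison and sorted by CK-p25 minus CK; filled points passed the adjusted threshold. Differences of CK-p25 PU.1 cKO from CK-p25 run from -0.35 to 0.48 and none passed, and both comparisons with CK have 38 filled points.

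Genes with ISRE-like letters in the promoter window can be set beside those without, as a description. The 14 with a match had differences of 0.71 to 3.90 in CK-p25 against CK, with a median of 2.83, and 14 rose. The 22 with a promoter and no match had differences of 0.02 to 4.27, with a median of 1.33, and 18 rose. They include the 7 genes with the composite letters. Oasl2 and Ifit2, among the largest rises, had no match in the window, and the table held no promoter for the other 8, which include Usp18, Mx1 and Ifi27l2a.

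The effect of PU.1 deletion on these genes during neurodegeneration was read from CK-p25 PU.1 cKO and CK-p25. None of the 44 genes passed the threshold, and none of the 10894 genes tested did (limma, 0% called). At an unadjusted p under 0.05 there were 0 of the 44 and 671 of all genes (6.16%). The 44 differences ran from -0.35 to 0.48 with a median of -0.05, 17 positive and 27 negative, against a median of 0 over all genes. All 44 of the 95% intervals held 0, and 37 lay within -1 to 1, so for those a change of 1 on the log2 scale lies outside the unadjusted interval. The intervals of Ifit1, Usp18, Mx2, Ifitm3, Znfx1, Parp14 and Ifi44 were wider or reached past 1. A difference that missed the threshold does not show that the groups were alike.

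The 3 most positive differences were those of Oas3 (0.48 ± 0.21, interval -0.01 to 0.97, adjusted p = 0.745), Znfx1 (0.48 ± 0.28, interval -0.15 to 1.11) and Dtx3l (0.42 ± 0.19, interval -0.02 to 0.86). The 3 most negative were those of Usp18 (-0.35 ± 0.36, interval -1.18 to 0.48), Mx2 (-0.30 ± 0.36) and Mx1 (-0.29 ± 0.28). In Oas3, Dtx3l, Ifitm3 and Helz2 the 3 CK-p25 PU.1 cKO libraries lay above the 3 CK-p25 libraries, as did 4.82% of all genes. Both ends of this order leaned on CK-p25 replicate 3. Without that library the differences of Usp18, Mx2 and Mx1 turned to 0.10, 0.16 and 0.07. Those of Oas3, Znfx1 and Dtx3l shrank to 0.26, 0.10 and 0.17. In the same fit the median of the 44 moved to 0.16 and 36 were positive. With CK-p25 PU.1 cKO replicate 2 left out, which was the lowest of its group in 37 of the 44 genes, the median was 0.04 and 27 were positive. In neither fit did any of the 44 pass.

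Against CK, 38 of the 44 genes rose in CK-p25 PU.1 cKO and none fell, where 17.8% of all genes were called higher and 13.3% lower. The median difference was 2.0. In 42 of the 44 genes the cKO libraries lay above CK without overlap, against 29.4% of all genes. Quantile normalization moved the higher share of calls to 45.9%, against 57.2% as deposited. The largest differences were those of Ifi27l2a (4.30 ± 0.19), Ifitm3 (4.27 ± 0.36) and Oasl2 (4.16 ± 0.24), and the smallest of those that passed was that of Sp110 (0.68 ± 0.16, adjusted p = 0.0117). The 6 that did not pass were Ifi44 (2.35 ± 0.84, adjusted p = 0.0674), Parp14 (0.97 ± 0.33, 0.0546), Znfx1 (0.74 ± 0.28, 0.0746), Mx2 (0.70 ± 0.36, 0.178), Dtx3l (0.55 ± 0.19, 0.0593) and Trafd1 (0.12 ± 0.15, 0.58). The 3 groups share 1 estimate of spread, and without CK-p25 replicate 3 all but Ifi44 and Trafd1 passed, 42 of 44. Calls over all genes increased in that fit too, to 24.3% higher and 22% lower. Samhd1 (0.75 ± 0.24, adjusted p = 0.0451) lost its call without CK-p25 PU.1 cKO replicate 2 (0.104) or 3 (0.139), without CK-p25 replicate 1 (0.0573) and without CK replicate 1 (0.120), 2 (0.112) or 3 (0.0883). Both comparisons share the 3 CK libraries, so their values are given side by side and not as 2 independent results.

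CK-p25 replicate 3 is the only 4.5-month library whose description gives a sequence file name with another prefix; what the prefix stands for is not stated. It was the highest of its group in 32 of the 44 genes and the lowest in 8, while over all genes it was highest in 43.6% and lowest in 40.7%. Its high values include Ifit1 (64.1 FPKM), Usp18 (225 FPKM), Oasl1 (57.3 FPKM), Mx1 (10.7 FPKM) and Mx2 (5.20 FPKM). Its low values include Znfx1 (20.7 FPKM), Dtx3l (16.4 FPKM), Parp14 (5.55 FPKM), Trim25 (7.41 FPKM) and Oas3 (6.57 FPKM). Among the libraries that share a prefix, that is without this library, 41 of the 44 rose in CK-p25 against CK, with a median of 1.90. In that fit 21.6% of all genes were called higher and 19.8% lower, also more than with all libraries. Dtx3l (0.38, adjusted p = 0.00406), Znfx1 (0.65, 0.00048) and Parp14 (1.02, 0.0014) then passed, and Trafd1 stood at -0.16. The other libraries had an order too: CK replicate 3 was the highest CK library in 35 genes and CK replicate 1 the lowest in 31.

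**Figure D3:**
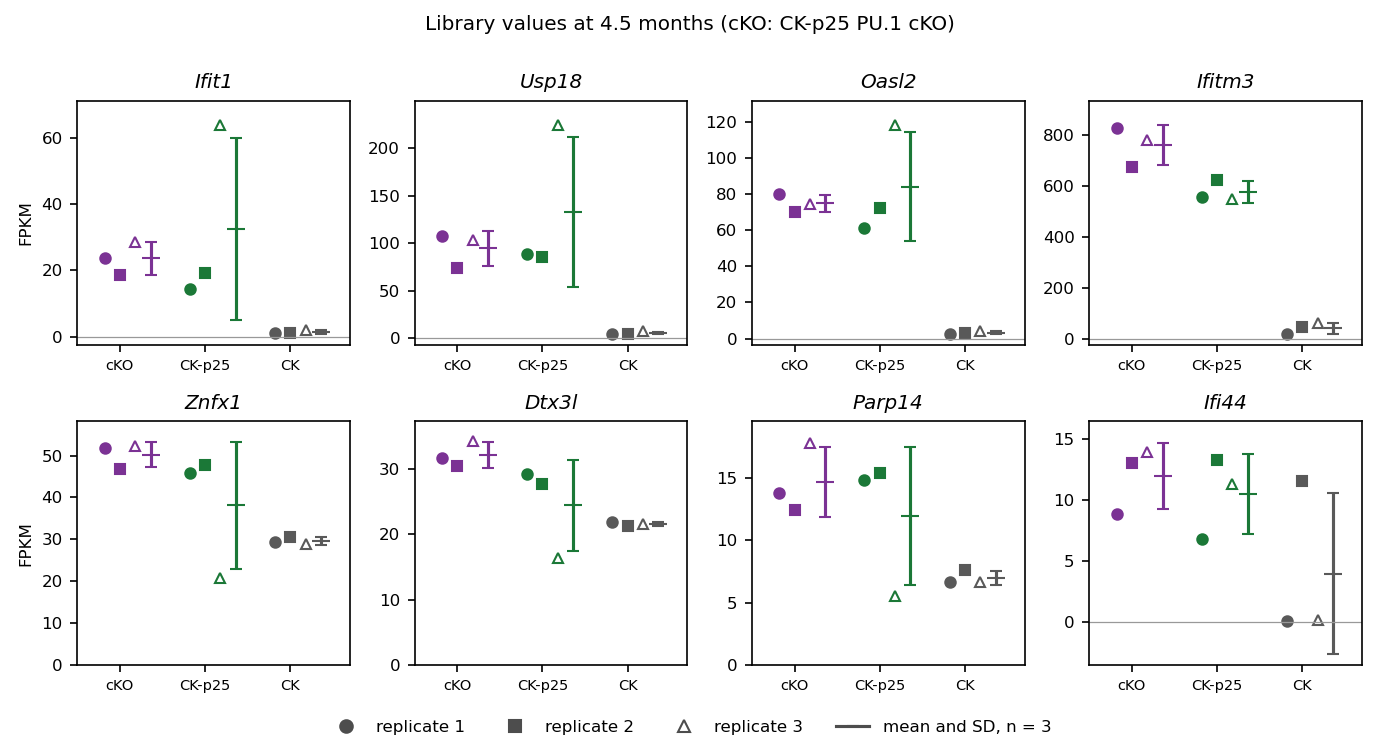
FPKM of 8 interferon effector genes in each 4.5-month library (symbols by replicate) with the mean and SD of 3 libraries beside them. CK-p25 replicate 3, the open green triangle, is above the other CK-p25 libraries in Ifit1, Usp18 and Oasl2 and below them in Znfx1, Dtx3l and Parp14, and CK replicate 2 is at 11.5 FPKM in Ifi44.

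Markers of other cells that a CD11b and CD45 sort could hold were read in the same libraries. The 7 neutrophil markers summed to 26.8 to 168 FPKM in CK-p25 PU.1 cKO, 0 to 834 FPKM in CK-p25 and 0.163 to 122 FPKM in CK. All 7 were listed at 0 in CK-p25 replicate 1, in which Ifit2 measured 69.6 FPKM and the 44 genes summed to 3046 FPKM. The 7 monocyte markers summed to 35.2 to 57.4 FPKM in CK-p25 PU.1 cKO, 17.4 to 53.8 FPKM in CK-p25 and 3.87 to 18.7 FPKM in CK, without overlap between CK-p25 PU.1 cKO and CK. The 8 border macrophage markers summed to 174 to 518 FPKM in CK-p25 PU.1 cKO, 132 to 191 FPKM in CK-p25 and 7.71 to 355 FPKM in CK. The list of plasmacytoid dendritic cells, which are strong interferon producers, contains Bst2, a member of the 44. It summed to 431 to 564 FPKM in CK-p25 PU.1 cKO, 467 to 570 FPKM in CK-p25 and 78.5 to 126 FPKM in CK, of which Bst2 made up 406 of the 564 FPKM in CK-p25 PU.1 cKO replicate 1. Of its 7 markers other than Bst2, 3 could be tested, and 2 of these rose in CK-p25 against CK on the log2 scale: Cox6a2 by 5.51 ± 0.29 (adjusted p = 1.45e-05), more than any of the 44 genes, and Pacsin1 by 1.5 ± 0.32 (adjusted p = 0.00894). The third stood at -0.16 and did not pass. Cox6a2 had FPKM values of 139.5, 122 and 91.1 in CK-p25 PU.1 cKO, 171, 156 and 78.7 in CK-p25, against 2.13, 1.42 and 2.03 in CK, and rose by 5.36 ± 0.29 in CK-p25 PU.1 cKO against CK, where Pacsin1 did not pass. Another marker of the list, Klk1, was listed at 0 in 8 of the 9 libraries. Ly6d was listed at 0 in all 3 CK-p25 libraries, in CK-p25 PU.1 cKO replicate 1 and in CK replicate 1.

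Astrocyte and lymphocyte markers were read in the same way. The 8 astrocyte markers summed to 102 to 271 FPKM in CK-p25 PU.1 cKO, 106 to 408 FPKM in CK-p25 and 59.2 to 91.5 FPKM in CK, so that neither CK-p25 group overlapped CK. Gfap, the intermediate filament of astrocytes, rose on the log2 scale by 4.02 ± 0.85 in CK-p25 (adjusted p = 0.00829) and by 4.17 ± 0.85 in CK-p25 PU.1 cKO (adjusted p = 0.00683), each against CK. In CK-p25 against CK the other 7 astrocyte markers did not pass, and the list median was 0.71. In CK-p25 PU.1 cKO against CK 2 of the 8 passed, with a median of 0.76. The 11 lymphocyte markers in the tables summed to 8.37 to 50.1 FPKM in CK-p25 PU.1 cKO, 22.3 to 28.8 FPKM in CK-p25 and 30.5 to 36.9 FPKM in CK. Of the 6 that could be tested, Klrb1c rose by 1.39 ± 0.17 in CK-p25 and by 1.40 ± 0.17 in CK-p25 PU.1 cKO, while Cd79b was lower in CK-p25 PU.1 cKO (-1.95 ± 0.56), each against CK. The monocyte list had 1 of 5 tested markers higher in both comparisons with CK, Fn1, by 2.17 ± 0.61 in CK-p25 and by 3.63 ± 0.61 in CK-p25 PU.1 cKO. The part of all these cells in the differences of the 44 genes was not tested.

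The rest of the pathway was read from lists of its ligands, its receptors and transducers, and other interferon-stimulated genes. Of 10 interferon ligands, 5 (Ifna1, Ifna5, Ifne, Ifnl2 and Ifnl3) were listed at 0 in all 15 libraries. Ifnb1, interferon beta, had FPKM values of 0.730, 0.266 and 4.87 in CK-p25 PU.1 cKO and 0.0856, 1.56 and 5.68 in CK-p25 and was listed at 0 in all 3 CK libraries. It was the only ligand to enter the fit and did not pass (CK-p25 against CK, adjusted p = 0.177). Ifna2 was at 0 except in CK-p25 replicate 3, with 1.45 FPKM, and Ifna4, Ifnk and Ifng reached at most 0.216 FPKM in any 4.5-month library. At 3 months Ifnb1 was above 0 in 2 libraries, at 0.200 FPKM in titled PU.1 cKO replicate 2 and 0.411 FPKM in titled control replicate 1. At such levels the values may rest on few reads, and their depth is unknown.

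Of the 16 receptors and transducers listed, 6 rose and 1 fell in CK-p25 against CK, with a list median of 0.29. Irf7, the factor that amplifies interferon production, had FPKM values of 116, 83.8 and 121 in CK-p25 PU.1 cKO, 82.6, 93.7 and 156 in CK-p25, compared with 2.59, 5.32 and 5.56 in CK (4.34 ± 0.31). Stat2 (1.86 ± 0.21) and Irf9 (0.80 ± 0.12), which take part in binding the ISRE, also rose. So did the receptor chain Ifnar2 (0.66 ± 0.08), the feedback inhibitor Socs3 (0.83 ± 0.25) and the kinase Tyk2 (0.26 ± 0.08), while the interferon gamma receptor Ifngr1 fell (-0.81 ± 0.13). The other 9 did not pass: Ifnar1 (0.20), Ifngr2 (0.11), Jak1 (-0.03), Jak2 (0.20), Irf1 (0.66), Irf3 (0.13), Irf8 (0.49), Socs1 (0.33) and Pias1 (-0.15). In CK-p25 PU.1 cKO against CK 6 of the 16 rose and 1 fell, with Jak2 (0.35 ± 0.09) past the threshold and Socs3 (0.25 ± 0.25) not. In CK-p25 PU.1 cKO against CK-p25 none of the 16 passed.

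Other interferon-stimulated genes numbered 48 on the list, which shares Stat2, Irf7 and Irf9 with the transducers, and 42 could be tested at 4.5 months. In CK-p25 against CK 32 rose and none fell, with a median of 1.19. The 5 with the largest differences were the chemokine gene Cxcl10 (4.44 ± 0.43), Irf7, the nucleic acid sensor Zbp1 (4.27 ± 0.24), Lgals3bp (3.82 ± 0.12) and the DNA sensor Ifi204 (3.68 ± 0.27). In CK-p25 PU.1 cKO against CK 32 also rose and none fell, and against CK-p25 none passed. The 44 effector genes and this list thus had counts in the same direction at 4.5 months, though both were named for that response.

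At 3 months the 44 genes did not move together. Of the 41 that could be tested (Oas1g, Helz2 and Ifi44 lay under a mean of 1 FPKM), 4 were higher and 5 lower in libraries titled PU.1 cKO than in those titled control, where 12.4% of 10845 genes were called higher and 17.8% lower. The median difference of the 41 was 0.10, against -0.03 over all genes. The other reading of the labels gives the opposite signs for every difference in this comparison, here and in all later 3-month paragraphs. The groups did not overlap in 12 of the 41, a smaller share than the 48.8% of all genes. Quantile normalization shifted the median of all genes to 0.09, and the higher share of all calls was then 53.0%, against 41.1% as deposited.

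The lower genes included Ifi27l2a and Ifitm3, which were also among the most abundant. Ifi27l2a measured 41.6, 29.5 and 72.7 FPKM in libraries titled PU.1 cKO and 151, 247 and 274 FPKM in those titled control (-2.25 ± 0.37, adjusted p = 0.00481). Ifitm3 measured 72.8, 54.9 and 109 FPKM in libraries titled PU.1 cKO and 193, 173 and 276 FPKM in those titled control (-1.46 ± 0.30). Rsad2 measured 1.98, 0.952 and 2.39 FPKM in libraries titled PU.1 cKO and 5.86, 4.93 and 4.30 FPKM in those titled control (-1.15 ± 0.27). In all 3 genes each library titled PU.1 cKO lay below each titled control. Sp100 measured 21.6, 17.7 and 18.1 FPKM in libraries titled PU.1 cKO and 43.3, 32.7 and 30.3 FPKM in those titled control (-0.84 ± 0.19), and Oas1a 5.78, 5.26 and 7.27 FPKM in libraries titled PU.1 cKO and 11.1, 9.40 and 9.82 FPKM in those titled control (-0.65 ± 0.18, adjusted p = 0.0343). Bst2, at -0.60 ± 0.21, did not pass (adjusted p = 0.0708).

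The higher genes were led by Slfn8, which measured 22.6, 29.0 and 28.1 FPKM in libraries titled PU.1 cKO and 7.74, 11.6 and 4.22 FPKM in those titled control (1.72 ± 0.32, adjusted p = 0.00772). Rtp4 measured 55.8, 47.2 and 49.3 FPKM in libraries titled PU.1 cKO and 32.9, 21.6 and 20.9 FPKM in those titled control (1.01 ± 0.21). The ISG15-activating enzyme Uba7 measured 46.2, 41.0 and 39.1 FPKM in libraries titled PU.1 cKO and 22.1, 27.5 and 19.3 FPKM in those titled control (0.86 ± 0.18). These 3 genes and Trafd1 had no overlap between the groups. Trafd1 measured 52.0, 48.8 and 55.6 FPKM in libraries titled PU.1 cKO and 35.6, 34.9 and 30.6 FPKM in those titled control (0.61 ± 0.16, adjusted p = 0.0237). Dtx3l had the next largest positive difference after Slfn8 and did not pass: it measured 10.3, 15.2 and 21.8 FPKM in libraries titled PU.1 cKO and 4.52, 12.4 and 3.78 FPKM in those titled control (1.19 ± 0.43, adjusted p = 0.0735), and titled control replicate 2 lay inside the range of the libraries titled PU.1 cKO. Of the genes with differences above 3 in CK-p25 against CK, Ifi27l2a, Ifitm3, Rsad2 and Oas1a were called lower here and none was called higher. The others of that size did not pass. The IFIT genes had differences of -0.55 to 0.06, none past the threshold. Usp18 measured 21.1, 17.0 and 18.3 FPKM in libraries titled PU.1 cKO and 20.9, 14.4 and 18.4 FPKM in those titled control (0.08 ± 0.19), and Oasl2 13.9, 6.71 and 16.7 FPKM in libraries titled PU.1 cKO and 17.6, 20.9 and 14.0 FPKM in those titled control (-0.53 ± 0.33). Both overlapped between the groups and did not pass.

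**Figure D4:**
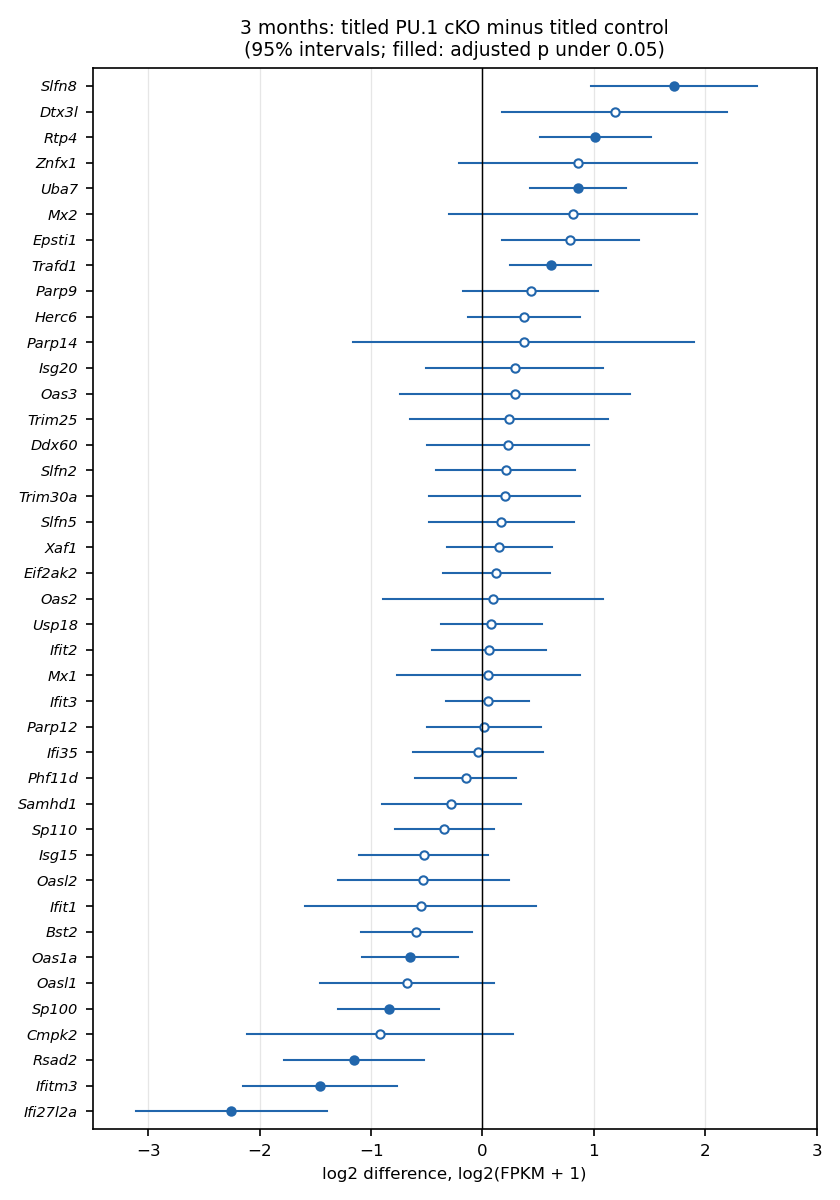
Log2 difference, titled PU.1 cKO minus titled control, of the 41 genes tested at 3 months (points) with its 95% interval (lines), sorted by size; filled points passed the adjusted threshold. The points run from -2.25 in Ifi27l2a to 1.72 in Slfn8, 9 of them filled, and the other reading of the labels would mirror the plot about 0.

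Some of these calls depended on single libraries. Of the 6 fits that each left out a library, all 6 kept the calls of Ifi27l2a, Ifitm3, Slfn8 and Rtp4, 4 of 6 those of Rsad2 and Uba7, 3 of 6 that of Sp100, 2 of 6 that of Trafd1 and 1 of 6 that of Oas1a. The count of higher genes was 2 without titled PU.1 cKO replicate 1 or replicate 2 and 9 without titled control replicate 2, when Dtx3l, Epsti1, Mx2, Parp9 and Znfx1 joined. Over all genes the higher share in these 3 fits was 7.04%, 5.37% and 18.7%. The count of lower genes was 2 without titled PU.1 cKO replicate 2 and 3 without titled PU.1 cKO replicate 3 or titled control replicate 1. Over all genes the lower share in these 3 fits was 8.9%, 10.1% and 11.9%. The sorted cells also differed by title in markers: the 12 microglial markers summed to 32680 to 38220 FPKM in libraries titled PU.1 cKO and 10846 to 18217 FPKM in those titled control. The 8 border macrophage markers summed to 328 to 390 FPKM in libraries titled PU.1 cKO and 557 to 1688 FPKM in those titled control. The 7 neutrophil markers reached 15953 FPKM in titled control replicate 1, against 48.8 to 366 FPKM in the libraries titled PU.1 cKO and 89.5 and 122 FPKM in the other titled controls. The 7 monocyte markers summed to 7.39 to 41.7 FPKM in libraries titled PU.1 cKO and 51.1 to 1018 FPKM in those titled control. The plasmacytoid dendritic cell list, which holds Bst2, summed to 148 to 175 FPKM in libraries titled PU.1 cKO and 188 to 266 FPKM in those titled control, and its marker Cox6a2 was lower (-2.39 ± 0.37). Lists with sums on the other side were those of astrocytes, with 76.3 to 80.8 FPKM in libraries titled PU.1 cKO and 19.6 to 47.4 FPKM in those titled control, and of lymphocytes, with 54.2 to 69.1 FPKM in libraries titled PU.1 cKO and 20.3 to 23.4 FPKM in those titled control. The endothelial list summed to 17.8 to 20.4 FPKM in libraries titled PU.1 cKO and 6.67 to 17.6 FPKM in those titled control. The single markers of these lists did not all go with the sums. Of 5 astrocyte markers tested 1 was called higher and 2 had negative differences, with a median of 0.08. Of 2 lymphocyte markers tested 1 was called higher and the other stood at -0.35. Of 3 endothelial markers tested 1 was called higher and 1 was negative. All of these sums but that of the neutrophils were without overlap between the titles. The plasmacytoid sum was mostly Bst2, itself an interferon effector gene whose values did not overlap. Bst2 made up 125 of 155 FPKM in titled PU.1 cKO replicate 1 and 232 of 257 FPKM in titled control replicate 3. Without Bst2 the plasmacytoid sums overlapped between the titles. Without titled control replicate 1, Ifi27l2a and Ifitm3 were still called lower, and Bst2 with them, while Rsad2 (adjusted p = 0.0615), Sp100 (0.0584) and Oas1a (0.117) were not. The part of any of these cells in the differences was not tested.

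In the pathway lists at 3 months, 4 of the 16 receptors and transducers were higher in libraries titled PU.1 cKO and none lower: Ifngr1 (1.5 ± 0.22), Irf1 (0.88 ± 0.24), Ifnar2 (0.82 ± 0.18) and Irf9 (0.79 ± 0.18). Among the other interferon-stimulated genes 2 of 43 tested were higher (Irf9 and Trim21) and 6 lower, with a median of -0.02. As shares of the 43 these lie below the 12.4% higher and 17.8% lower over all genes. The lower ones included Cxcl10 (-3.25 ± 0.41), Ifitm2 (-2.12 ± 0.30), Ifi204 (-1.33 ± 0.27) and Ifi30 (-1.25 ± 0.33), with Zbp1 (-1.18 ± 0.32) and Gbp2 (-0.60 ± 0.15). Irf7 measured 19.3, 11.3 and 27.4 FPKM in libraries titled PU.1 cKO and 23.6, 26.4 and 17.5 FPKM in those titled control, with overlapping groups (-0.27 ± 0.32, adjusted p = 0.539).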

How the data were processed

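RNA was measured in 15 libraries of sorted hippocampal microglia, prepared, per the labels' protocols, with a SMART-Seq v4 Ultra Low Input kit and Nextera XT, which do not mark strand. The authors deposited FPKM values per gene in 2 tables, 1 for 3 months (6 libraries) and 1 for 4.5 months (9 libraries). TopHat, Bowtie, Cufflinks 2.0.0 and build mm9 are named per the submitters' processing notes, without their order or settings. FPKM hold no counts, so depth is unknown and no interval for counting error was made; the summed FPKM was 449784 to 622613 per library at 3 months and 475007 to 650063 at 4.5 months. The 4 ChIP samples were not analysed here.

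Genes whose mean in a table reached 1 FPKM were tested as log2(FPKM + 1) with limma 3.58.1 in R 4.3.3 (empirical Bayes with a mean-variance trend, two-sided), each table on its own and the 3 groups of the 4.5-month table in 1 fit. Adjusted p-values are Benjamini-Hochberg over all genes tested, with a threshold of 0.05. Fold changes on this scale understate those of low genes. The fit was tested on simulated data. Promoters and figures used Python 3.11.15 with pandas 2.3.3 and matplotlib 3.10.9.

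Samples were grouped by title. At 3 months the descriptions tie each sample to a table column named for the other group, and Spi1 goes against the titles, so directions there hold only under the titles. Labels do not say that replicates are separate animals, so p-values reflect only how these samples vary, and that variation may be technical. Same-numbered replicates did not deviate together (correlations of -0.05 to 0.17), so the numbers were not taken as pairs.

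Library values are given for the most abundant gene of each role, the 3 most positive and 3 most negative differences of each comparison, genes that did not pass in CK-p25 against CK, genes called against the majority and genes listed at 0; Ifit1, Ifit3, Oas1a, Sp100, Uba7, Irf7 and a few others were added after their values were seen. The genes and lists were chosen with earlier results of these data known, and an item left out of the lists is not reported here. Alternatives changed the pseudocount (0.1), the filter (none, or a mean of 5 FPKM), the scaling (quantile, median centring), the variance trend, genes at 0 beside 100 FPKM or more, the libraries in the fit, a replicate block, and left out each library in turn.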

Additional observations from a re-analysis of the deposited data

How the results depend on the processing

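Counts of the 44 genes called at 4.5 months kept their direction under every alternative run. Leaving out 1 library at a time gave 37 to 41 higher in CK-p25 against CK, 37 to 42 higher in CK-p25 PU.1 cKO against CK and 0 to 0 in CK-p25 PU.1 cKO against CK-p25, with 0 lower throughout. A filter at a mean of 5 FPKM leaves 38 of the 44 in the test, of which 33 and 34 were higher. At 3 months leaving out 1 library gave 2 to 9 higher and 2 to 5 lower in libraries titled PU.1 cKO. With a replicate block the counts were 38 higher in CK-p25 against CK, 39 in CK-p25 PU.1 cKO against CK, 0 in CK-p25 PU.1 cKO against CK-p25, and 4 higher and 5 lower at 3 months; none of these counts moved by over 1.5 times.

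Values near 0 changed sign. In CK-p25 against CK after quantile normalization Spi1 stood at -0.39 and Trafd1 at -0.11. With each library left out in turn, Spi1 ran from -0.10 to 0.16, with -0.02 without CK replicate 2 and its lowest value without CK-p25 replicate 3. Trafd1 ran from -0.16 without CK-p25 replicate 3 to 0.15, with -0.02 without CK replicate 3, and Dtx3l from -0.017 without CK-p25 replicate 1 to 0.38 without CK-p25 replicate 3. In CK-p25 PU.1 cKO against CK-p25, Mx1 ran from -0.54 to 0.069, Mx2 from -0.61 to 0.16 and Usp18 from -0.59 to 0.10, each highest without CK-p25 replicate 3.

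Over all genes, the 3-month count of higher calls was 2086 after quantile normalization, against 1344 as deposited, and 580 to 2010 when a library was left out, with 960 to 2721 lower. With a library left out, higher calls ran from 1373 to 2360 in CK-p25 against CK and from 1453 to 2650 in CK-p25 PU.1 cKO against CK. Lower calls ran from 902 to 2162 in CK-p25 against CK and from 908 to 2398 in CK-p25 PU.1 cKO against CK. CK-p25 PU.1 cKO against CK-p25 gave at most 12 higher and 13 lower genes. The cause was not tested. The FPKM tables give no depth, so no limit for low genes such as Oas1g, Helz2 and the ligands could be set.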
